A study of Homo sapiens with 6 samples.

Results

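Tumour necrosis factor (TNF) receptors and the NF-kB transcription factors they feed were followed through 10 genes: the receptors LTBR, TNFRSF1A, TNFRSF12A and TNFRSF21, the adaptors TRAF2 and TRAF3, and the NF-kB subunits RELA, RELB, NFKB1 and NFKB2. Their rows were found by pairing the Ensembl identifiers of the count table with GENCODE symbols, which gave 10 of 20169 gene rows, and all 10 had enough reads to enter the test of 13103 genes. LTBR was selected on its measured counts, which differ between the lines compared here, and the others were taken for their place in its pathway. The difference between the lines therefore counts as used in choosing the members, and their values are given as a description, without p-values.

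RNA-seq of polyadenylated RNA was done on HEK293T, a human embryonic kidney line that carries the SV40 large T antigen. Both groups are monoclonal derivatives with a landing pad, a genomic docking site for reporter genes, and differ in whether the pad holds the PGK promoter (from a glycolytic gene) or the CAG promoter (a strong viral and actin composite). Each line gave 3 libraries, with no treatment named. The labels show no more than 1 clone per promoter, so promoter and clone cannot be told apart, and nothing says that replicates were separate cultures, so their spread may be technical. The series is about how 3'UTRs set expression, and these libraries profile the host lines themselves. In bulk RNA, fewer cells with a transcript and less transcript per cell cannot be told apart.

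LTBR, the lymphotoxin beta receptor, and the related receptors lack enzyme activity and signal through adaptors of the TRAF family and death-domain proteins. In the canonical branch, kinases of the IKK complex remove IkB inhibitors from dimers of RELA and the product of NFKB1. In the non-canonical branch, which LTBR, CD40 and TNFRSF12A are known to engage, TRAF2 and TRAF3 are displaced or degraded, the kinase NIK accumulates, and the NFKB2 precursor is cut to a form that pairs with RELB. Lymphotoxin signalling is best known for building lymphoid tissue, where lymphocytes supply the ligand and stromal and epithelial cells the receptor.

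The NF-kB genes are themselves classed among NF-kB targets, so their promoters were searched for the NF-kB consensus site on both strands. The RefSeq windows (GRCh38.p14, from 250 bases before to 50 after an annotated start) held 8 of the 10 members, all but RELB and TNFRSF12A. Of their 12 windows 4 held a match (33.3%), against 5.91% of all 35116 windows, and the genes concerned were NFKB1, NFKB2 and TRAF3. A match describes letters and not binding. The 4 sites printed here are a single site from each window with a match. Of the genes concerned NFKB1 and NFKB2 encode subunits and TRAF3 an adaptor. NFKB1 differed between the lines, while NFKB2 did so by less than its spread. Capitals mark the match, written in the direction of the gene, which is the plus strand in each case. They lie at chr4:102501302-102501327 for NFKB1, at chr10:102394463-102394488 and chr10:102395676-102395701 for NFKB2, and at chr14:102777408-102777433 for TRAF3, with the first base of the match at -49, -107, -21 and -33 from the start of the window's transcript. The first NFKB2 match reads as a match on the opposite strand too, and a further opposite-strand match overlaps it at -106. NFKB2 also matched at -78 and, in another window, at -176, which makes 8 matches in all with both strands counted.
NFKB1: acgtcagtGGGAATTTCCagccagga
NFKB2 at -107: aacgtcatGGGAATTCCCccctccgg
NFKB2 at -21: gtattttcGGGACTTTCCtaagctgc
TRAF3: ggcgcgccGGGGATTTCCagcgcgcg

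The libraries held 21896246 to 23442542 counts, and levels are given as CPM, counts scaled to a common depth, on library sizes scaled by TMM. A count of 0 allows up to 3 counts, or 0.126 to 0.140 CPM at these depths; this floor and the counting intervals cover counting error only, since PCR copies are not separate molecules. Libraries of a line were much closer to each other than to the other line, with a chi-square per degree of freedom of 3.31 to 9.55 within lines and 49.1 to 59.5 between them. Of 15 immune markers 7 were at 0 in all 6 libraries, among them CD3D, CD3E and MS4A1, and the summed level of the list was 2.80 to 3.68 CPM in PGK and 2.54 to 3.59 in CAG. Among 12 kidney epithelial markers KRT18 and PAX2 were detected in every library while UMOD and AQP2 were at 0. PAX8 had 0 counts in PGK and 1 in CAG, and CDH16 had 1 in each line. The list summed to 63.9 to 68.4 CPM in PGK and 71.7 to 81.1 in CAG, most of it KRT18 at means of 52.2 and 57 CPM. Of the 6 tested genes of this list 3 were called higher and 1 lower (66.7%, against 62.0% of all tested genes). Their median log2 fold change was 1.08. Higher in CAG were KRT8 (means of 1.09 and 5.35 CPM), CDH1 (1.17 and 4.82) and EPCAM (2 counts in PGK, 78 in CAG). WT1 was lower, from 10.5 to 6.72 CPM. The part of these differences in the results was not tested. Endothelial and fibroblast markers, 9 with a row, summed to 19.0 to 20.5 CPM in PGK and 22.8 to 23.4 in CAG, with COL1A2 at 0.

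LTBR was read in every PGK library and in no CAG library. It had 115, 111 and 109 counts in PGK replicates 1, 2 and 3, or 5.35, 4.99 and 4.77 CPM, and 0 counts in all 3 CAG libraries. Set against the floor of 3 counts per library, the mean of 5.04 ± 0.293 CPM (SD, n = 3) in PGK was at least 39.2-fold higher. As a description of the counts on which LTBR was selected, 3 of 20169 genes were at 0 in every CAG library while averaging 1 CPM or more in PGK, the others being LRFN5 at 1.68 and NR0B1 at 1.45 CPM. In the reverse direction 8 genes were at 0 in every PGK library with 1 CPM or more in CAG. LTBR (ENSG00000111321, chromosome 12) shares 6.7% of its exon length with SCNN1A on the other strand, and although the library kit was directional, the sources used here do not give the strand setting of the counting. SCNN1A, an epithelial sodium channel subunit, had 6 counts in PGK and 6 in CAG, so the overlapping gene held few reads in either line.

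**Figure D1:**
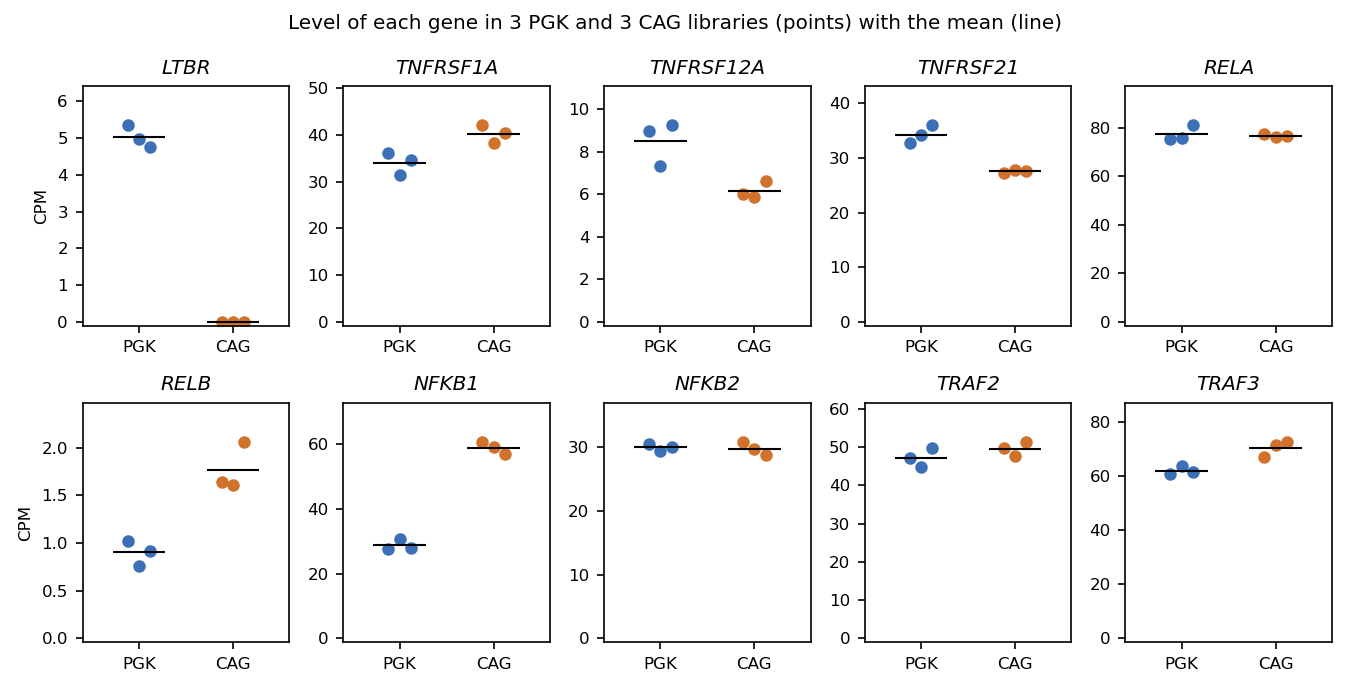
Scaled counts (CPM, vertical axes from 0, one scale per gene) of the 10 genes in the 3 PGK and 3 CAG libraries (points), with the line mean as a bar. LTBR lies at 4.77 to 5.35 CPM in PGK and at 0 in CAG, NFKB1 and RELB are higher in CAG (2.05-fold and 1.96-fold), and RELA and NFKB2 overlap.

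The tested genes around LTBR on chromosome 12 were read in both lines, while the genes directly beside it had few reads in either. TNFRSF1A, on the other side of SCNN1A, was read at 31.4 to 36.1 CPM in PGK and at 38.2 to 42.0 in CAG. On the other side of LTBR the receptor gene CD27, directly beside it, had 0 counts in PGK and 3 in CAG, all in CAG replicate 2, while TAPBPL, a chaperone of antigen presentation, had 2 and 11 counts, a CAG to PGK ratio of 5.23 (95% exact counting interval 1.14 to 48.6). PLEKHG6, farther on the TNFRSF1A side, had 1 count in all 6 libraries together. VAMP1, a vesicle fusion protein and the nearest tested gene on the CD27 side, was lower in CAG by a log2 fold change of -0.31 (SE 0.07, adjusted p = 0.00151), from 24.7 to 19.9 CPM. Over the 10 tested genes on each side of LTBR the median log2 fold change was 0.00, with 4 called higher (TNFRSF1A included), 7 lower and 9 not called, and the values ran from -0.44 for TIGAR to 1.94 for the potassium channel KCNA6. GAPDH, 4 tested genes away, was at -0.08 (SE 0.05).

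The 5 genes with the most similar profile to LTBR over the 6 libraries, by Euclidean distance of log2(CPM + 0.1), were PSMD5, FLRT2, CDH11, PRR16 and DPYD. PSMD5, a chaperone of proteasome assembly, was the closest at a distance of 0.556, with 4.63 ± 0.181 CPM in PGK (SD, n = 3) and 1 count in CAG. Its PGK to CAG ratio was 324, with a 95% exact counting interval of 57.7 to 12800. The next was FLRT2, an adhesion protein, at a distance of 1.65, and the others lay at 1.82 to 1.95. These 5 lie on chromosomes 9, 14, 16, 5 and 1, none on chromosome 12.

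The other 3 receptors differed by far less than LTBR. TNFRSF1A, the main receptor for TNF, had 36.1, 31.4 and 34.6 CPM in PGK and 42.0, 38.2 and 40.3 in CAG, so that every CAG library lay above every PGK library. Its log2 fold change was 0.24 (SE 0.07). TNFRSF12A, also called Fn14, the receptor for the cytokine TWEAK, had 8.99, 7.32 and 9.24 CPM in PGK and 5.99, 5.85 and 6.63 in CAG, with a log2 fold change of -0.47 (SE 0.11). All CAG libraries lay below PGK, and the lowest PGK library was replicate 2. TNFRSF12A shares 2.2% of its exon length with CLDN6 on the other strand, which had 0.378 ± 0.157 CPM in PGK and 0.444 ± 0.134 in CAG (SD, n = 3). TNFRSF21, death receptor 6, had 32.7, 34.2 and 36.0 CPM in PGK and 27.3, 27.8 and 27.6 in CAG, again with no overlap and a log2 fold change of -0.31 (SE 0.06).

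Of the adaptors, TRAF2, which brings ubiquitin ligases to the receptors, overlapped between the lines at 47.1, 44.7 and 49.7 CPM in PGK against 49.7, 47.7 and 51.4 in CAG. Its log2 fold change was 0.07 (SE 0.06). TRAF3, which holds NIK at low levels in unstimulated cells, had 60.8, 63.5 and 61.3 CPM in PGK and 67.0, 71.5 and 72.6 in CAG, all above PGK, with a log2 fold change of 0.19 (SE 0.05). Per length, the TRAF3 to TRAF2 ratio was 0.583 ± 0.0425 in PGK and 0.629 ± 0.0338 in CAG (SD, n = 3), and the ranges of the libraries overlapped.

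NFKB1, whose product p105 is processed to the p50 subunit, was about 2-fold higher in the CAG line. It had 27.6, 30.8 and 27.8 CPM in PGK and 60.7, 59.0 and 56.9 in CAG, with no overlap and a log2 fold change of 1.04 (SE 0.06). Of all tested genes 91.9% had a smaller change in either direction. NFKB2, which encodes p100 and its processed form p52, differed by less than its spread, at 30.5, 29.3 and 30.0 CPM in PGK and 30.8, 29.6 and 28.8 in CAG. RELA, the p65 subunit that activates transcription, was also level, with 75.6, 75.9 and 81.1 CPM in PGK and 77.4, 76.4 and 76.9 in CAG. Their log2 fold changes were -0.01 (SE 0.06) for NFKB2 and -0.01 (SE 0.05) for RELA.

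RELB, the partner of p52, was low in both lines and higher in CAG, at 22, 17 and 21 counts in PGK and 37, 38 and 49 in CAG. In CPM these are 1.02, 0.764 and 0.920 against 1.64, 1.61 and 2.06, with no overlap and a log2 fold change of 0.97 (SE 0.22). CAG replicate 3 was the highest, and the larger error goes with 60 and 124 counts in all. By edgeR's quasi-likelihood test 4 members were called higher (TNFRSF1A, RELB, NFKB1, TRAF3) and 3 lower (LTBR, TNFRSF12A, TNFRSF21), while 62.0% of all tested genes were called, 31.6% higher and 30.4% lower. The libraries of the lines did not overlap for these 7 members, where 65.5% of tested genes showed no overlap, 33.5% with CAG above and 32.0% with CAG below. Since the members were chosen with this contrast in view, nothing is read from these counts.

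The 2 NF-kB subunit genes that were higher lay among neighbours that were higher too. Around NFKB1 on chromosome 4, 18 of 20 tested neighbours were called higher and 1 lower, with a median log2 fold change of 0.57. The 5 tested genes on the side of MANBA, a lysosomal mannosidase, ran from 0.91 for MANBA to 1.17 for SLC9B1, with the ubiquitin-conjugating enzyme UBE2D3 at 0.98, CISD2 at 1.10 and SLC9B2 at 1.02. NFKB1 at 1.04 thus lay within the range of these 5 genes. It lay above the 5 on the other side, which ran from 0.34 for FLJ20021 to 0.92 for DDIT4L. Of the 20 neighbours 2 stood above NFKB1. With 5 tested genes on each side in place of 10 the median was 0.91. Around RELB on chromosome 19, 16 of 20 were called higher and 1 lower, with a median of 0.60, and 4 neighbours stood above RELB, among them the lipoprotein genes APOE at 1.91 and APOC1 at 1.18. Whether NFKB1 and RELB differ from their neighbours was not tested. For the remaining members the medians of the neighbours ran from -0.21 for NFKB2, where 14 of 20 were called lower, to 0.00 for LTBR and TRAF3.

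**Figure D2:**
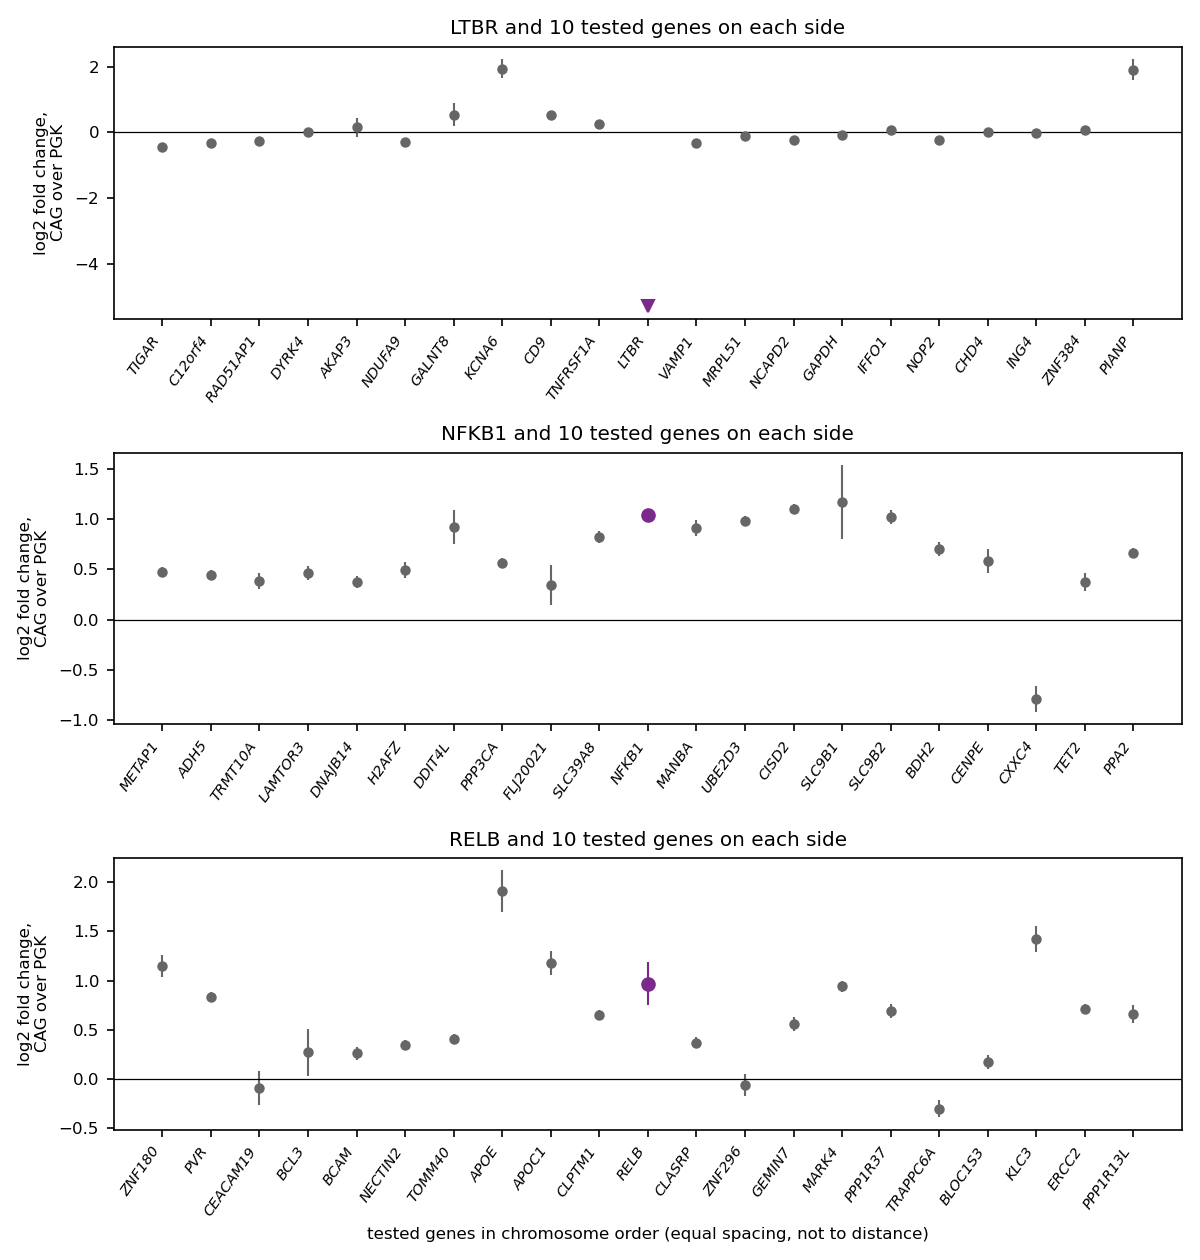
Log2 fold change, CAG over PGK (vertical axes), of LTBR, NFKB1 and RELB (purple) and the 10 tested genes on each side (grey), in chromosome order with equal spacing; bars are SE and the triangle marks LTBR at its bound. The neighbours of LTBR have a median of 0.00, those of NFKB1 0.57 and those of RELB 0.60.

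To compare levels between genes, CPM was divided by exon length in kilobases (RPKM). In PGK the order was RELA (14.2 ± 0.563 RPKM, SD, n = 3), TRAF2 (12.9), TNFRSF21 (9.54), TNFRSF1A (8.50), TRAF3 (7.48), NFKB2 (6.68), TNFRSF12A (4.61), NFKB1 (4.59), LTBR (0.802 ± 0.0467) and RELB (0.297). Neighbours in this order were separate in all libraries except TNFRSF12A and NFKB1, which overlapped. In CAG, RELA at 14.1 and TRAF2 at 13.5 RPKM overlapped, as did TNFRSF1A at 10.0 and NFKB1 at 9.41. These were followed by TRAF3 (8.51), TNFRSF21 (7.67), NFKB2 (6.63), TNFRSF12A (3.33), RELB (0.583) and LTBR (0). NFKB1 thus ranked 8 in PGK and 4 in CAG. Divided by the longest annotated transcript, LTBR in PGK was 2.17 RPKM and still ranked 9, while TNFRSF1A moved above TNFRSF21, NFKB2 above TRAF3 and NFKB1 above TNFRSF12A.

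The make-up of the NF-kB subunit transcripts differed between the lines mainly in NFKB1. Of the summed RPKM of RELA, RELB, REL, NFKB1 and NFKB2, NFKB1 held 15.9%, 17.4% and 15.3% in PGK and 29%, 28.6% and 27.8% in CAG. RELA held 50.1 ± 1.01% in PGK and 42.6 ± 0.381% in CAG, and NFKB2 23.6 ± 0.856% and 20.1 ± 0.450% (SD, n = 3). REL, the c-Rel subunit of lymphocytes, held 8.97 ± 0.625% and 7.18 ± 0.526%, and RELB 1.05 ± 0.164% and 1.76 ± 0.264% (SD, n = 3). The ratio of NFKB1 to NFKB2 per length was 0.688 ± 0.0580 in PGK and 1.42 ± 0.00941 in CAG (SD, n = 3). By transcript, NFKB2 was thus the more abundant of these genes in PGK and NFKB1 in CAG, while their proteins were not measured. RELB stayed rare beside RELA, with 48.4 ± 7.11 RELA transcripts per RELB transcript by length in PGK and 24.5 ± 3.18 in CAG (SD, n = 3). The shares sum to the whole, so a larger share of one gene means smaller shares elsewhere.

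**Figure D3:**
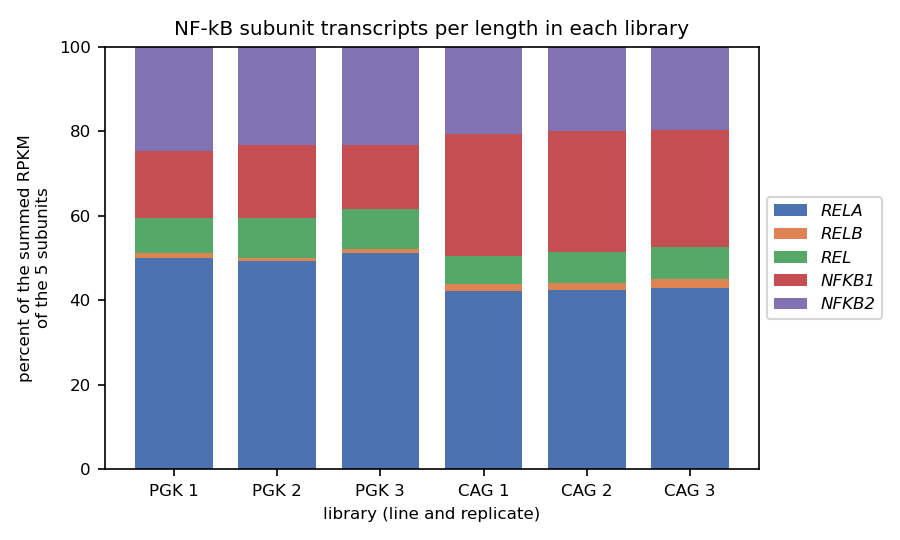
Share of each NF-kB subunit gene (percent of the summed RPKM of 5 genes, stacked to 100) in each library. NFKB1 holds 15.3% to 17.4% in the PGK libraries and 27.8% to 29% in the CAG libraries.

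Most TNF-family ligands had few or no reads in either line. Of 18 TNF-family ligands with a row 14 did not pass the filter on low counts, and 4 of these, TNFSF8, TNFSF14 (LIGHT, a ligand of LTBR), FASLG and CD40LG, had 0 counts in all 6 libraries. Lymphotoxin alpha (LTA) had 7 counts in PGK and 5 in CAG, lymphotoxin beta (LTB) 1 and 2, and TNF 2 and 0. TNFSF12, which encodes TWEAK, had 0 counts in PGK and 9, 8 and 7 in CAG, at least 2.54-fold higher against the floor. It was too low for the main filter, and was called higher with no filter (adjusted p = 2.3e-05) and by DESeq2 (adjusted p = 4.4e-04). The gene overlaps the read-through locus TNFSF12-TNFSF13, which had 0 counts. The ligand with the most counts was EDA, ectodysplasin, with 996 in PGK and 979 in CAG, or 14.0 to 16.5 CPM and 13.1 to 14.5 CPM, with overlapping libraries and no call. TNFSF9 was at 8.78 ± 0.759 and 5.05 ± 0.944 CPM and CD70 at 5.29 ± 0.398 and 2.89 ± 0.167 (SD, n = 3). Of the 4 tested ligands 2 were called lower, CD70, the ligand of CD27, at -0.87 (SE 0.13, adjusted p = 1.4e-05) and TNFSF9, the ligand of 4-1BB, at -0.79 (SE 0.13, adjusted p = 2.2e-05). The median of the tested ligands was -0.45, beside 0.00 for all tested genes. Both CD70 and TNFSF9 lie on chromosome 19 among neighbours with medians of -0.38 and -0.39.

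The other TNF-family receptors changed in both directions. Of 25 with a row 13 were tested, 3 were called higher and 6 lower (69.2% called, against 62.0% of all tested genes), with a median log2 fold change of -0.14. TNFRSF10D, a decoy receptor for the death ligand TRAIL, rose from 2.79, 3.41 and 3.33 CPM in PGK to 18.6, 19.6 and 19.8 in CAG. This is a log2 fold change of 2.60 (SE 0.10, adjusted p = 1.4e-13), or 6.06-fold. TNFRSF10C, the other membrane decoy, rose from 1.38 ± 0.186 to 3.29 ± 0.362 CPM (SD, n = 3; adjusted p = 7.6e-06), while the signalling TRAIL receptor TNFRSF10B fell by 0.27 on the log2 scale (SE 0.06, adjusted p = 4.2e-04), from means of 79.3 to 65.8 CPM. TNFRSF10B overlaps RHOBTB2 on the other strand. TNFRSF10A, the remaining signalling TRAIL receptor, had 0 counts throughout. The neighbours of TNFRSF10D had a median of -0.08.

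CD40, which like LTBR engages the non-canonical branch, fell from 6.84, 5.93 and 5.83 CPM in PGK to 1.55, 1.23 and 1.51 in CAG. All CAG libraries lay below PGK, with a log2 fold change of -2.11 (SE 0.15, adjusted p = 1.1e-09). The ectodysplasin receptor EDA2R fell by 1.17 (SE 0.09, adjusted p = 2.6e-09) and the death receptor FAS by 1.11 (SE 0.12, adjusted p = 2.2e-07) on the log2 scale. FAS overlaps ACTA2 on the other strand, which had 514 counts in PGK and 118 in CAG, so its value is uncertain. The nerve growth factor receptor NGFR rose by 1.42 (SE 0.36, adjusted p = 0.00198), at only 20 and 57 counts. TNFRSF1B, the second TNF receptor, was named after its values were seen: it had 4 counts in PGK and 37 in CAG, a ratio of 8.80 with a 95% exact counting interval of 3.16 to 34.0.

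Seen as shares of the summed RPKM of all 29 TNF-family receptors, LTBR was a minor receptor transcript even in PGK, at 1.34 ± 0.0748% (SD, n = 3). TNFRSF10B held the largest share in both lines, 25.7 ± 2.02% in PGK and 23.2 ± 0.769% in CAG, ahead of TNFRSF21 (15.9% and 14.0%) and TNFRSF1A (14.2% and 18.3%). TNFRSF10D went from 1.5 ± 0.186% to 9.96 ± 0.358% (SD, n = 3) and CD40 from 4.09 ± 0.324% to 1.03 ± 0.115%. Divided by the longest transcript, LTBR held 2.78 ± 0.143% in PGK, and TNFRSF1A at 25.7% passed TNFRSF10B at 22.5% in CAG.

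**Figure D4:**
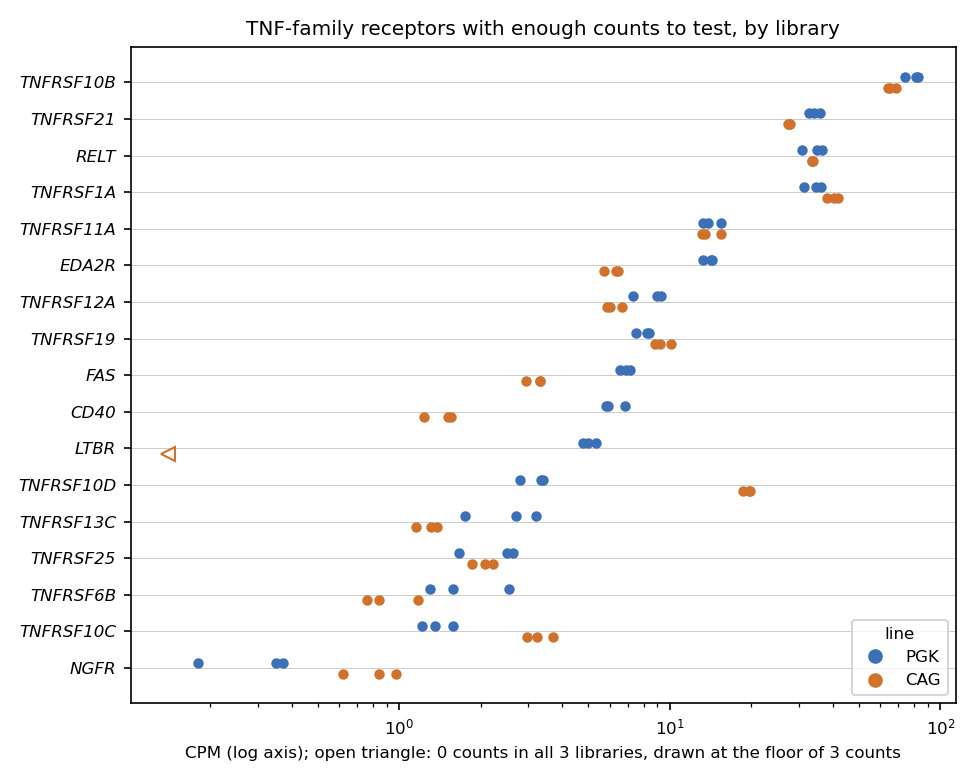
CPM (log axis) of the 17 tested TNF-family receptor genes in each PGK and CAG library (points), ordered by their PGK mean; the open triangle stands for LTBR at 0 counts in CAG, drawn at the floor of 3 counts. LTBR, CD40, FAS and EDA2R are lower in every CAG library and TNFRSF10D is higher, at 18.6 to 19.8 CPM against 2.79 to 3.41.

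Adaptors and ubiquitin enzymes at the receptors moved in both directions and mostly by little. All 29 were tested, with 10 called higher and 6 lower (55.2%, against 62.0% of all tested genes) and a median log2 fold change of 0.12. UBE2D3, the neighbour of NFKB1, was the most strongly supported at 0.98 (SE 0.05, adjusted p = 3.5e-12), from 193 ± 7.53 to 380 ± 6.27 CPM (SD, n = 3). BIRC3, the inducible ligase cIAP2, rose by 1.63 (SE 0.39, adjusted p = 0.00134) at 17 counts in PGK and 56 in CAG, whereas its relative BIRC2, or cIAP1, was at 35.4 ± 2.11 and 35.9 ± 1.39 CPM (SD, n = 3) and was not called. The initiator caspase CASP10 rose by 0.59 (SE 0.09, adjusted p = 2.1e-05). Among those that fell were TNIP1, which restrains NF-kB with A20, at -0.64 (SE 0.05, adjusted p = 3.4e-09), SHARPIN, a part of the linear ubiquitin ligase, at -0.36 (SE 0.07, adjusted p = 2.2e-04), and TRAF4 at -0.34 (SE 0.06, adjusted p = 7.8e-05). SHARPIN overlaps MAF1 on the other strand and is uncertain, and 16 of the 20 neighbours of TNIP1 and of SHARPIN were called lower too. TNFAIP3, which encodes A20, was at 4.58 ± 0.155 and 5.55 ± 0.362 CPM (SD, n = 3) and was called higher with an adjusted p of 0.0452. The TNFAIP3 call was lost in 8 of 12 alternatives (0.0276 to 0.189).

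Among the kinases that activate NF-kB, 7 of 10 had a row and were tested, while MAP3K14 (NIK), IKBKG and IKBKE were not analysed here. Of the 7, 3 were called higher and 1 lower (57.1%, against 62.0% of all tested genes), with a median of -0.03. CHUK, the IKK alpha kinase that acts on p100, fell by 0.46 on the log2 scale (SE 0.05, adjusted p = 6.1e-07), with means of 82.2 CPM in PGK and 59.6 in CAG. It overlaps ERLIN1 on the same strand, and 14 of its 20 neighbours were called lower as well. IKBKB, the IKK beta kinase of the canonical branch, was at 44.8 ± 0.907 and 49.6 ± 1.46 CPM (SD, n = 3) with an adjusted p of 0.0231, and MAP3K7, known as TAK1, had an adjusted p of 0.0440. The IKBKB call was lost in 4 of 12 alternatives (0.00710 to 0.0935) and the MAP3K7 call in 8 (0.0129 to 0.162). MAP3K3 rose by 0.25 (SE 0.05, adjusted p = 4.4e-04) and overlaps LIMD2 and STRADA on the other strand.

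The inhibitors and the remaining subunit were tested as a list of 11. Of these 4 were called higher and 2 lower (54.5%, against 62.0% of all tested genes), with a median of 0.06. NFKBIA, which encodes IkB alpha and is a quick NF-kB target, was at 21.8 ± 2.38 and 20.5 ± 1.57 CPM (SD, n = 3), and REL at 33.5 ± 2.97 and 31.3 ± 1.96. Neither was called, with adjusted p of 0.345 and 0.247; REL was called lower without PGK replicate 1 (adjusted p = 0.0363, in a range of 0.0363 to 0.595). NFKBIZ rose by 0.75 (SE 0.12, adjusted p = 3.6e-05), NFKBID by 0.63 (SE 0.13, adjusted p = 5.0e-04) and NFKBIB by 0.51 (SE 0.07, adjusted p = 2.6e-06). These are atypical and typical IkB proteins, and each lies among neighbours of which 15 to 17 of 20 were called higher. NFKBIB overlaps SIRT2 on the other strand. NFKBIE, at -0.32 (SE 0.10, adjusted p = 0.00991), lost its call without CAG replicate 2 or PGK replicate 3 (up to 0.0750, from 0.00145), and COMMD1 at -0.24 lost its call in 5 of 12 alternatives (0.0148 to 0.113) and overlaps the highly expressed CCT4 on the other strand.

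Known NF-kB targets did not move as one group. Of 43 with a row only 20 were tested, of which 4 were called higher and 8 lower (60.0%, against 62.0% of all tested genes), with a median log2 fold change of -0.23. The targets CXCL10, CXCL13, CCL21, IL1B, VCAM1, SELE and BCL2A1 had 0 counts in all 6 libraries, and CXCL8 had 0 in PGK and 6 in CAG. CCND1, the G1 cyclin D1, fell from 80.8, 83.0 and 80.4 CPM in PGK to 8.69, 10.6 and 11.0 in CAG, a log2 fold change of -3.01 (SE 0.07, adjusted p = 1.8e-16), while its neighbours had a median of 0.01. CCND1 overlaps LTO1 on the other strand, which had 2314 and 2027 counts. The immediate-early gene JUNB fell by 1.57 (SE 0.11, adjusted p = 5.8e-10) with 18 of 20 neighbours lower, and overlaps HOOK2 on the other strand. MADCAM1, a homing ligand of lymphoid vessels, fell by 1.09 (SE 0.25, adjusted p = 8.9e-04), among 14 tested neighbours of which 12 were called lower and 0 higher. Besides BIRC3, the surface protein CD83 rose by 0.85 (SE 0.10, adjusted p = 7.1e-07), with 13 of 20 neighbours higher, and the survival gene BCL2L1 by 0.28 (SE 0.06, adjusted p = 6.3e-04). Several of these genes answer to many other factors, and some, such as NFKBIA, TNFAIP3, BIRC3, TRAF1 and TNIP1, also stand in another list.

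**Figure D5:**
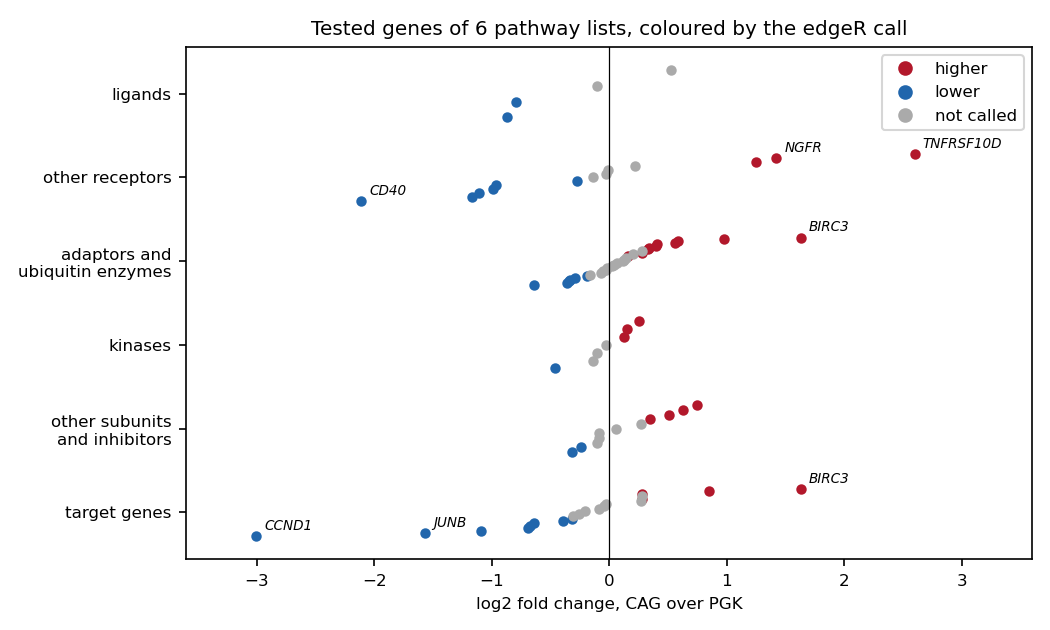
Log2 fold change, CAG over PGK (horizontal axis), of the tested genes of 6 pathway lists (rows), coloured by the edgeR call. Calls lie on both sides of 0 in all lists but the ligands, of which only 4 were tested. CCND1 is lowest at -3.01 and TNFRSF10D highest at 2.60.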

How the data were processed

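The authors deposited whole-number read counts per Ensembl gene, neither normalized nor pooled. The build was hg19 and the tools were featureCounts 2.0.3, HISAT2 2.2.1, Bowtie2 2.5.1 and cutadapt 4.6, per the submitters' processing notes. The sources used here do not give their roles, the annotation, the strand setting or the handling of multi-mapped reads. All 6 columns matched labelled samples. GENCODE 29, on GRCh38, named 19346 of 20169 rows. Gene order, exon lengths and overlaps were taken from its coordinates, which are on another build than the counts and are not printed.

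Genes passing edgeR's filterByExpr (13103) were scaled by TMM and tested CAG over PGK with robust quasi-likelihood fits (edgeR 4.0.16, R 4.3.3; two-sided; Benjamini-Hochberg; called under 0.05). Each SE was obtained by dividing the size of the log2 fold change by the square root of F. The alternatives are given in the closing section. The code was tested on simulated counts. The members, lists and naming rule (up to 3 called genes per direction and list with at least 0.5 CPM, the neighbours of LTBR, and set pathway genes) were chosen with earlier results of these data known. Replicate numbers were not used to pair the libraries in the main test.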

Additional observations from a re-analysis of the deposited data

How the results depend on the processing

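Alternatives were DESeq2 1.42.0, a replicate block, leaving out each library, scaling by RLE or by library size only, and either no low-count filter or a minimum of 1 CPM in 3 libraries. The bound for LTBR, not recomputed with DESeq2 or the replicate block, was at least 38.0-fold to 40.3-fold higher in PGK, and no log2 fold change of another member moved by more than its replicate spread, with NFKB1 at 1.00 to 1.09 and RELB at 0.85 to 1.06. Among ligands, 1 gene was called higher in place of 0 with no filter and with DESeq2. Among kinases, 1 in place of 3 was higher with DESeq2, and 1 to 2 without 1 library, while 2 in place of 1 were lower with the replicate block and 1 to 2 without 1 library (2 without PGK replicate 3). Among subunits and inhibitors, 1 in place of 2 was lower with DESeq2 and with library size only, and 0 to 2 without 1 library (0 without CAG replicate 2). Same-numbered libraries correlated by 0.108, 0.103 and 0.013 in their deviations from the line means. Differently numbered libraries correlated by -0.111 to 0.010, all below the same-numbered values. The correlations were weak, and the main test did not take the numbers as pairs, though a weak pairing may exist. With the replicate block 4461 genes were higher and 4399 lower, against 4139 and 3986. Library size only gave 4487 higher and 3510 lower. Neighbour medians depended on the window for LTBR (-0.10 with 20 genes a side), NFKB1 (0.91 with 5) and 4 other members. Genes near the floor, such as the ligands, are limited by depth.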
